A study of Mus musculus with 6 samples.

Results

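The isoforms described here are transcripts that long-read sequencing found in known mouse genes but that carry no reference identifier, called new isoforms below. An isoform was included when its parent was a known gene of the deposited gene table, its own type was not a known one, and its counts over the 6 libraries summed to at least 60. These conditions were met by 7101 of the 75457 isoforms counted, and a further 468 new isoforms of known genes fell below the minimum. The 7101 new isoforms belonged to 3588 parent genes, which is 27.8% of the 12896 known genes with at least 60 isoform counts. GENCODE M21 lists 3587 of the parents as protein-coding, and 1 was not matched. The deposited annotation types every one of the 7101 as mRNA.

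The RNA came from mouse brain tissue next to the clot, taken on day 5 after an intracerebral haemorrhage, a bleed into the brain. The 3 TEPP-46 libraries are from mice given that small-molecule activator of the M2 form of pyruvate kinase on consecutive days after the bleed, and the 3 vehicle libraries from mice given the carrier alone in the same way. All the mice had the haemorrhage, the labels give them as WT, and there is no uninjured group. The libraries, named C1, C2 and C4 (vehicle) and T1, T2 and T3 (TEPP-46) by their columns, held 5286426 to 6025064 counts each. Values are given in that order throughout. The labels do not state whether each sample was a different animal, and p-values therefore cover the spread between samples alone.

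Most mammalian genes make several transcripts by choosing different start sites, splice sites and polyadenylation sites. Isoforms of one gene can encode the same protein, a protein that lacks a domain, or no protein. A long read spans much of a cDNA molecule, so transcripts can be assembled without a reference model, and an assembled transcript that matches no reference model is listed as an isoform of its own. The brain is known for extensive alternative splicing, and neuronal RNA-binding proteins of the Rbfox, Nova and Celf families are regulators of it.

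The isoform table holds neither coordinates nor sequences for the new isoforms, so their exons cannot be printed. The coding sequences below are those of the leading annotated transcripts of 5 genes with short proteins and high counts, shown because new isoforms took 30.1% to 79.9% of the counts beside them. They are from GENCODE M21 on GRCm38, run 5′ to 3′, and have the start and stop codons in capitals.
Rpl41-201: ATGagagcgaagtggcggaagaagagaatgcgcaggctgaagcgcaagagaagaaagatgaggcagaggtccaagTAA
Cox7c-203: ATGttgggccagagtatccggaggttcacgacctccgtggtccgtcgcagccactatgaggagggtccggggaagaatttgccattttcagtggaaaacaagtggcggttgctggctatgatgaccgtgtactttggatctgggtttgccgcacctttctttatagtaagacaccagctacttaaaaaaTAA
Nrgn-201: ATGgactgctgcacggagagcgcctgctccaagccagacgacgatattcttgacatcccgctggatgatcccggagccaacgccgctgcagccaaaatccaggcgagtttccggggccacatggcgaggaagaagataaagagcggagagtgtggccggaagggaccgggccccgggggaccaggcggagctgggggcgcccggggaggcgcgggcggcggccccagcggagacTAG
Rpl37-201: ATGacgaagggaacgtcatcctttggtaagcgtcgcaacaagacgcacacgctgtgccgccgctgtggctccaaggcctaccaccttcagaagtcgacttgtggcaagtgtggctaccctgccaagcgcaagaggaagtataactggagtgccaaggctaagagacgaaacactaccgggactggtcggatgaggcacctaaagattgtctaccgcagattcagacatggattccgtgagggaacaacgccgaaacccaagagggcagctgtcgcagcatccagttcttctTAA
Hsbp1-201: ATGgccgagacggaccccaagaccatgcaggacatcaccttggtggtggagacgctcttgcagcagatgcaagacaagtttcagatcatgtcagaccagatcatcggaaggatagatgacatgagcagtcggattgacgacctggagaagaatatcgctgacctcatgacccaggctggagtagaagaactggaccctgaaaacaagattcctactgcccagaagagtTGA

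The 5 coding regions lie at chr10:128548387-128548960 on the minus strand (Rpl41, 78 bases in 3 exons), chr13:86045753-86046675 on the minus strand (Cox7c, 192 bases in 2 exons), chr9:37545953-37552551 on the minus strand (Nrgn, 237 bases in 2 exons), chr15:5116682-5118636 on the plus strand (Rpl37, 294 bases in 4 exons) and chr8:119344576-119345731 on the plus strand (Hsbp1, 231 bases in 3 exons). Rpl41 encodes a ribosomal protein of 25 residues, and its 3 new isoforms held 64094 of 213069 isoform counts (30.1%). Cox7c, a subunit of cytochrome c oxidase, had 2 new isoforms with 33.5% of its counts. In neurogranin (Nrgn), a postsynaptic protein that binds calmodulin, 8 new isoforms held 79.9%. The 3 new isoforms of the ribosomal protein gene Rpl37 held 65.4%, and the 3 of Hsbp1, which encodes a protein that binds heat shock factor, 64.6%. Each share varied little between libraries. That of Nrgn was 79.6%, 79.9% and 79.6% in the vehicle libraries, and 80.3%, 80.2% and 79.9% in the TEPP-46 libraries.

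New isoforms held 7394804 of the 31052256 isoform counts of known genes (23.8%), and 38.6% of the counts of their own parents. By library the share of all known-gene counts was 23.9% in C1, 23.1% in C2, 24.5% in C4, 24.0% in T1, 24.0% in T2 and 23.4% in T3. The means were 23.8% ± 0.668 (SD, n = 3) for vehicle and 23.8% ± 0.352 (SD, n = 3) for TEPP-46, and the ranges of the groups overlapped (p = 1 by an exact permutation test, two-sided, in which 3 against 3 libraries cannot give less than 0.1). Every one of the 7101 was counted in each of the 6 libraries. Their summed counts had a median of 414 and quartiles of 201 and 939, close to the median of 425 for the 8830 known isoforms of the same genes with at least 60 counts. By number, new isoforms made up 44.6% of the isoforms of these genes with at least 60 counts. These values depend on that minimum. It left out 468 of 7569 new isoforms of known genes, while 14934 annotated transcripts of the parents were listed at any count.

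The share per gene ranged widely, from 0.505% to 100%, with a median of 36.1% and quartiles of 21.9% and 50%. By group the median was 36.0% ± 0.146 (SD, n = 3) for vehicle and 36.3% ± 0.416 (SD, n = 3) for TEPP-46, with p = 0.3 by the same exact test. In 256 genes the new isoforms held under 10% of the counts. A gene was called dominated when its new isoforms held over 50% of its summed isoform counts. This was so in 887 genes (24.7%), and 11 more stood at exactly 50%. The share was above 75% in 148 genes, above 90% in 43 and at 100% in 3. The 887 dominated genes supplied 53.2% of all counts of new isoforms.

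**Figure D1:**
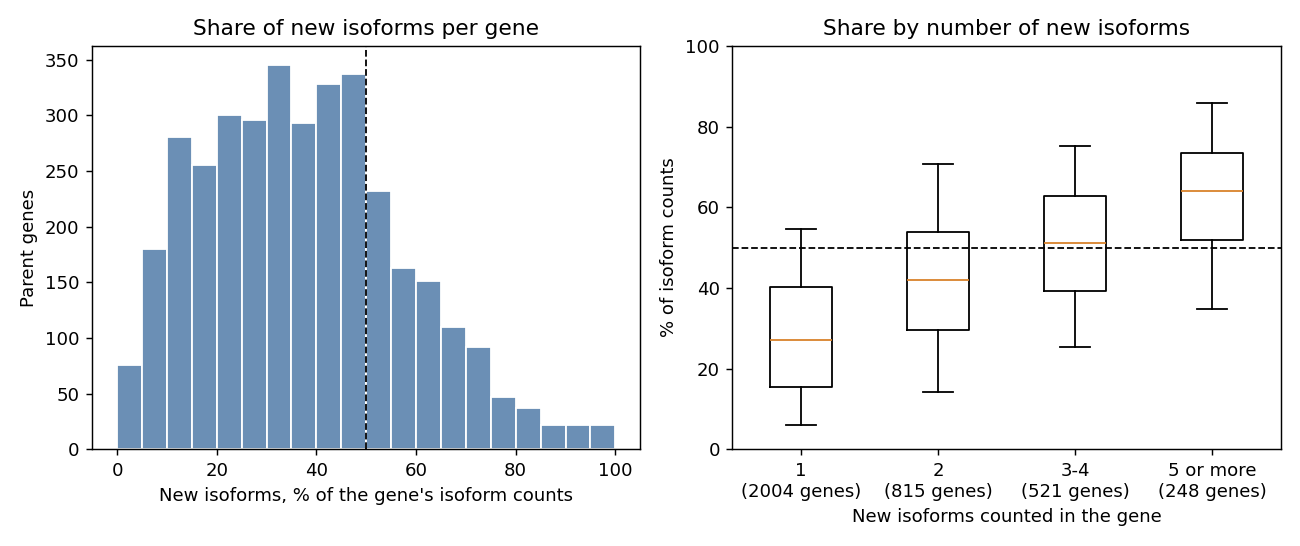
Left, the number of parent genes (y axis) by the share of their isoform counts held by new isoforms (x axis, percent, bins of 5 points), with a dashed line at 50%; 887 of 3588 genes lie above it. Right, the same share by the number of new isoforms in the gene, as median, quartiles and the 5th to 95th percentile; the medians are 27.1%, 42.0%, 51.1% and 64.0% from left to right.

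Dominance went with the number of new isoforms. A single new isoform was found in 2004 genes, with a median share of 27.1%, and 7.39% of these genes were dominated. With 2 new isoforms (815 genes) the median was 42.0% and 32.8% were dominated. With 3 or 4 (521 genes) these values were 51.1% and 52.6%, and with 5 or more (248 genes) 64.0% and 79.8%. Rbfox1, a neuronal splicing regulator, had the most, 18 new isoforms with 77.9% of 15037 counts. In the dominated genes the 3029 new isoforms were 64.9% of all isoforms with at least 60 counts and held 66.0% of the counts. These genes were picked for a high share of counts. Over all parents new isoforms were 44.6% of such isoforms and held 38.6% of the counts. Of the 887 dominated genes, 733 had a share above 50% in every library. A further 333 genes, some of them among the 887, were above 50% in some libraries only.

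A dominated gene was not always one whose leading transcript was new. In 451 of the 887 the most abundant isoform was new, and in 436 it was a known one, with the new isoforms adding up to more. A single new isoform held over 50% in 173 genes. Over all parents the most abundant isoform was new in 684 (19.1%), and in 464 this held in each of the 6 libraries.

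Counts of isoforms of 1 gene were often nearly the same. Another isoform of the same gene lay within 5% in every library for 952 of the new isoforms (13.4%). Among those with at least 600 counts it was 24.0% of 2670, beside 22.2% of 3524 known isoforms of the same genes. The leading new and the leading known isoform were this close in 278 genes, 113 of them dominated. In Eef1a1, the elongation factor that brings aminoacyl-tRNA to the ribosome, the new isoform ONT.13077.1 had 6340, 8429 and 3705 counts in the vehicle libraries and 6324, 7158 and 7716 in those of TEPP-46. The annotated Eef1a1-201 had 6391, 8470 and 3754, and 6389, 7202 and 7769. The Eef1a1 share of 52.0% for 7 new isoforms therefore rests mainly on a pair of isoforms whose counts follow each other from library to library. Some pairs of new isoforms had the same count in every library. In Cnp, ONT.1857.3 and ONT.1857.5 both had 514, 575 and 207 counts in vehicle and 646, 524 and 530 in TEPP-46. In Rsrp1, ONT.8605.4 and ONT.8605.7 were equal in each library, with 7031 summed counts each. Both isoforms of each pair enter the Cnp and Rsrp1 shares given below. How reads that match several isoforms were counted is not given in the sources used here, and the part that shared reads have in these shares was not tested.

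Of the dominated genes Gapdh had the most counts of new isoforms, followed by Atp1b1. Gapdh, which encodes the glycolytic enzyme glyceraldehyde-3-phosphate dehydrogenase (chr6:125161715-125166467, minus strand), had 6 new isoforms with 314543 of 510044 counts, or 61.7%. Its library shares were 61.5%, 61.4% and 62% in vehicle and 61.6%, 62.4% and 61.3% in TEPP-46. The highest of all new isoforms was ONT.10646.5 of Gapdh with 110853 counts, next to 115394 for the annotated Gapdh-203. The 10 highest-counted new isoforms include 4 of Gapdh and 1 each of Cox7c, Eef1a1, Rpl41, Hspa8 and Tmsb10, the last with 27143 counts. Atp1b1, the beta subunit of the sodium-potassium pump (chr1:164437109-164458355, minus strand), had 14 new isoforms. Their share of the 162171 Atp1b1 counts was 80.2%, 82.3% and 80.6% in vehicle and 82.6%, 83.7% and 82.8% in TEPP-46. The largest Atp1b1 isoform remained the annotated one, with 29403 counts, against 25437 for ONT.664.3.

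Pkm, the gene of the enzyme that TEPP-46 acts on, was also dominated (chr9:59656368-59679375, plus strand). Its 6 new isoforms held 67838 of 78986 counts (85.9%), with 86.0%, 85.1% and 87.1% in the vehicle libraries and 86.3%, 85.3% and 85.6% in those of TEPP-46. The groups overlap fully. The leading isoform, ONT.12611.2, had 19049 counts, and the leading annotated one, Pkm-201, had 9696. ONT.12611.1, with 9630 counts, was within 5% of Pkm-201 in every library. Which of the alternative M1 and M2 exons the 6 new Pkm isoforms contain was not analysed here, since the table gives no exon structure.

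Among the other dominated genes with the most counts of new isoforms, Chn1, a Rac GTPase-activating protein of neurons, reached 78.5%. Epn1 (epsin, an endocytic adaptor) reached 84.3% with 16 new isoforms, of which the largest had 3950 counts, and Ywhag, a 14-3-3 protein, reached 85.1%. The kinesin light chain gene Klc1 stood at 83.8% and the lysosomal sulfatase gene Ids at 86.4%. Uchl1, a deubiquitinating enzyme abundant in neurons, had 55.4%, and Syt1, the calcium sensor of vesicle release, 60.3%. Septin gene Sept7 had 68.0%, Nsg2 76.9%, Nptn (neuroplastin) 70.6%, the mitochondrial phosphate carrier Slc25a3 62.2%, Rsrp1 78.6% and Hnrnpk, an RNA-binding protein with 13 new isoforms, 53.7%. The ribosomal protein genes Rpl6, Rpl11 and Rps24 were at 74.0%, 70.4% and 51.2%.

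**Figure D2:**
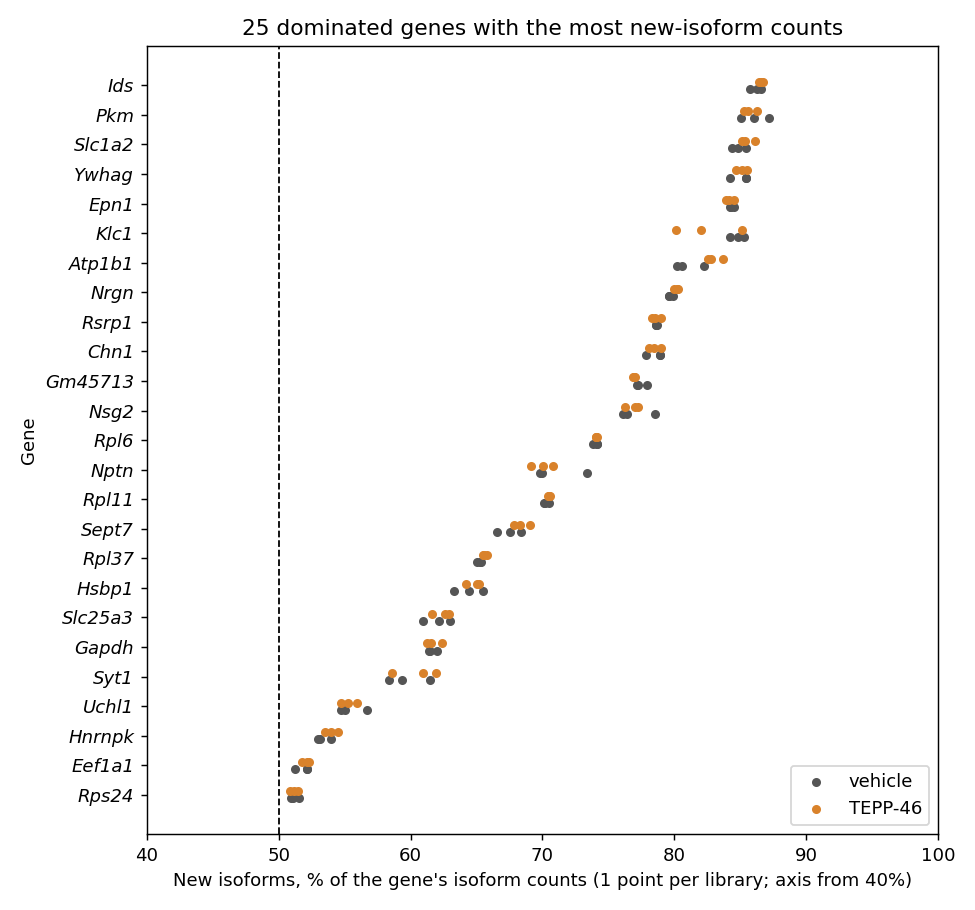
Share of new isoforms (x axis, percent of the gene's isoform counts, axis from 40%) in each library for the 25 dominated genes with the most new-isoform counts (y axis), 1 point per library, grey for vehicle and orange for TEPP-46. The 6 points of a gene lie close together and all lie to the right of the dashed line at 50%; Klc1 spans 80.1% to 85.3%.

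Across gene lists, dominance was uneven, and the lists were chosen with earlier results of these data known. The share of parents that were dominated over all known genes, 24.7%, and the median share of 36.1% are the values to set beside them. In the myelin list, 10 of 19 genes had new isoforms, the median share was 47.9% and 4 were dominated. These were Mog (72.9%), Cnp (68.2%), Mag (63.5%) and Car2 (63.3%), of which Mog and Mag encode proteins of the outer and inner faces of the sheath. Myelin basic protein (Mbp), a structural component of the sheath, was at 3.48%, although it had 287032 counts.

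Astrocyte genes split in the same manner. The glutamate transporter Slc1a2 (85.3%, with 10 new isoforms), the glutamine synthetase Glul (82.6%) and clusterin (Clu, 73.6%) were dominated. The metallothioneins Mt1, Mt2 and Mt3 had 9.44%, 11.3% and 12.1%, and Gfap 35.9%. The astrocyte list had a median of 23.4% with 3 of 12 dominated.

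Of the synaptic vesicle genes 3 of 14 were dominated, namely Cplx2 (complexin, 68.4%), Syt1 and Sncb (55.8%). Among scaffold and adhesion genes it was 4 of 12, namely Nrgn, Nptn, Olfm1 (55.5%) and Ncdn (50.8%). The ion pump list had 4 of 10, with the calcium pumps Atp2b1 (70.7%) and Atp2a2 (61.7%) and the potassium-chloride cotransporter Slc12a5 (61.2%) beside Atp1b1. The pump subunit Atp1b2 had 4.22%.

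In the splicing and RNA-binding list, the one with the most parents, 6 of 19 were dominated (31.6%). Beside Rbfox1 they include Mbnl2 (67.5%), Ddx5 (60.4%), Hnrnpa2b1 (59.5%) and Hnrnpk. Its other members reached down to 3.6% for Ddx17. Of the calcium-calmodulin genes, Camk2g (75%, 11 new isoforms) and the kinase inhibitor Camk2n1 (69.8%) were dominated. Other dominated list genes were the chaperones Hspd1 (79.0%) and Hsp90aa1 (55.1%), the respiratory chain genes Cyc1 (72.8%) and Ndufs1 (61.2%), and Ube2d3 (74.6%, 15 new isoforms), a ubiquitin-conjugating enzyme. In signalling lists they include the G protein subunit Gnai1 (67.5%), Rgs9 (50.2%) and Aplp1 (55.3%). The muscarinic receptor gene Chrm4 had 278 of its 284 counts in 1 new isoform.

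Other lists had no dominated gene. It was 0 of 8 for tubulins and microtubule-associated proteins (highest Map1lc3a, 40.2%), 0 of 7 for actin and neurofilament genes (highest Sptbn1, 45.9%), 0 of 11 for microglia and lysosome genes (highest Cx3cr1, 41.5%) and 0 of 4 for endothelial genes (highest Pltp, 42.9%). The list of 26 ribosomal protein genes had 1 of 15 parents dominated, Rps6 at 59.2%, and a range down to 1.54% for Rps2. That list does not hold every ribosomal protein gene, and the dominated Rpl37, Rpl6, Rpl11 and Rps24 are outside it. Beside Ftl1 (3.35%), the light chain of the iron store ferritin, no blood or iron gene of the 12 counted had a new isoform. These are counts of genes in lists of unequal size, without a test between lists.

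**Figure D3:**
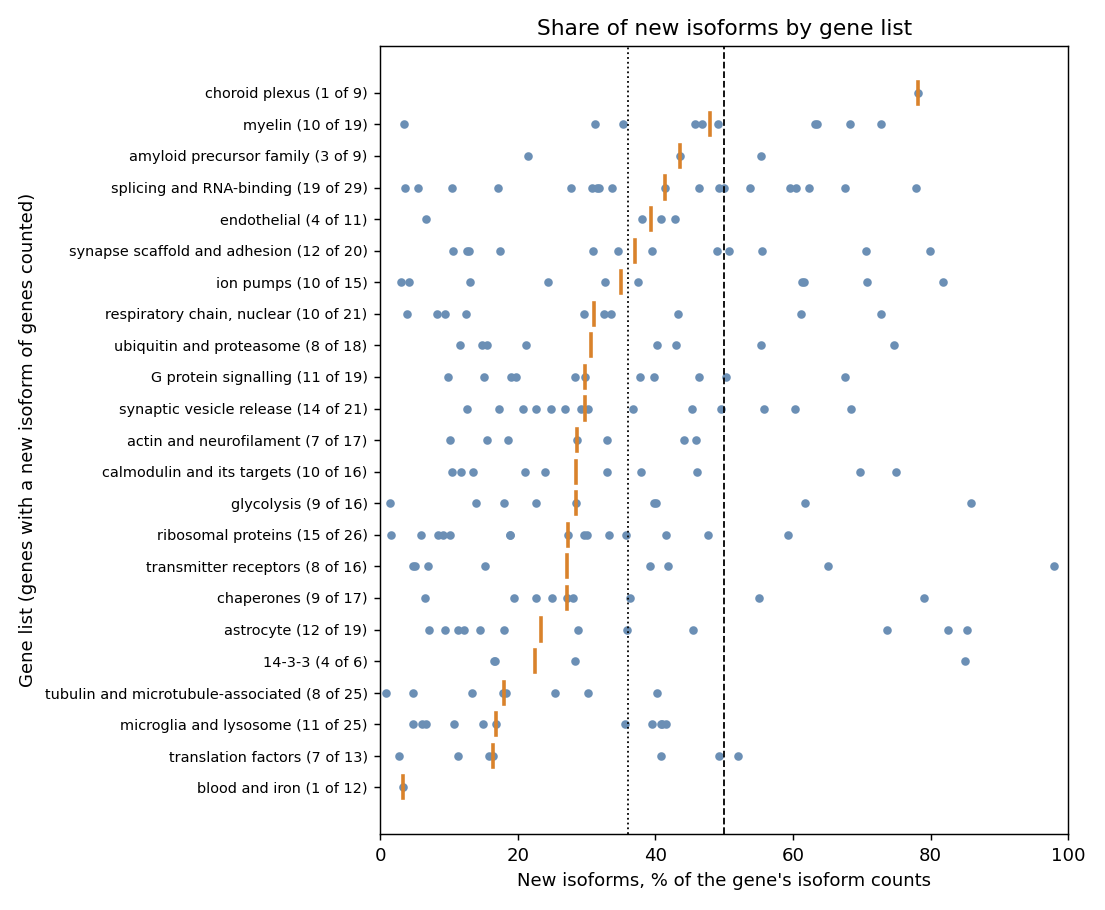
Share of new isoforms (x axis, percent of the gene's isoform counts) for the parents in each of 23 gene lists (y axis), 1 blue point per gene, with an orange bar at the median of the list. The dotted line is the median over all parents (36.1%) and the dashed line marks 50%; the points of single lists spread over most of the axis, as from 3.48% to 72.9% in myelin.

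The summed levels of oligodendrocyte and of choroid plexus markers differed between libraries. The summed level of 4 oligodendrocyte markers, Mbp, Mog and Mobp among them, was 5050 CPM (counts per 1000000 counts of the library) in C4 and 12509 to 14623 in the others. The leading new isoform of the myelin enzyme gene Cnp, ONT.1857.3, had 96.3 and 100.9 CPM in C1 and C2, 39.2 in C4, and 93.2 to 107 in the TEPP-46 libraries. Fewer cells of a type and less RNA per cell cannot be told apart in such bulk tissue. The share of the new isoforms within Cnp was 67.4% in C4 and 66.4% to 70.1% in the other 5 libraries. Choroid plexus markers (Ttr, Folr1, Kl, Clic6) summed to 4.21 CPM in C2 and 15.9 in C4 against 1798 to 4087 CPM elsewhere. In Enpp2, a lysophospholipase gene expressed by choroid plexus and oligodendrocytes, the new isoforms held 77.4%, 79.2% and 76.6% in the vehicle libraries and 78.5%, 78.4% and 78.7% in those of TEPP-46. None of the 4 markers of either list was at 0 in all libraries.

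In 103 genes the leading new isoform had over 2 times the count of the leading known isoform in each library. All 103 were dominated, and the 4 described next were chosen after their values were seen. Penk, which encodes the enkephalin precursor of striatal neurons (chr4:4133531-4138819, minus strand), had 600, 2325 and 913 counts of ONT.8731.1 in vehicle and 1284, 1712 and 1489 in TEPP-46. The annotated Penk-201 had 83, 429 and 223, and 237, 371 and 228. Rtl8c, derived from a retrotransposon gag gene (chrX:53608032-53608432, plus strand), had 649 to 852 counts per library in ONT.13313.2 and 1 to 4 in its only annotated transcript. For Ccdc85b (chr19:5453180-5457894, minus strand) the new isoform had 589, 633 and 841 counts in vehicle and 186, 509 and 539 in TEPP-46, against 18 to 45 for the known one. Tusc3, a subunit of the oligosaccharyltransferase, had 741 to 1001 counts in ONT.11795.2 and 258 to 303 in its known isoform. The order of new over known isoform in every library follows from how these genes were chosen.

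The protein match of a new isoform was not always its parent's. Swiss-Prot named the protein of another gene for 268 of 6799 new isoforms with such a match (3.94%), beside 229 of 8639 known isoforms of the same genes (2.65%). For 96 new isoforms, in 41 parents, that other gene overlapped the parent on the same strand. They held 132094 counts, 1.79% of all counts of new isoforms, and 31 of the 41 parents were dominated. In RPS10-NUDT3, a readthrough locus joining a ribosomal protein gene and its neighbour, 2 new isoforms matched Rps10. They held 2935, 3908 and 2703 counts in vehicle and 3293, 3367 and 3613 in TEPP-46, and Rps10 itself had 3373, 4425 and 3119, and 3786, 3901 and 4132. The new isoforms were lower in each library than Rps10, and the order of the libraries was the same. In Gm45713, 4 new isoforms matched the ribosomal protein gene Rpl13a, with 37045 counts next to 62429 of Rpl13a, and in Gm42420, 4 matched the complex I gene Ndufb2, with 9112 next to 11005. In both loci the new isoforms were again lower in each library, but the order of the libraries was not the same as in the overlapping gene. Other loci went the other way. The new isoforms of Pcdhgc3 that matched Pcdhga4 had 13236 counts next to 6579 of Pcdhga4. In Gm21988 it was 7217 next to 2635 of 0610010K14Rik, and in Gm45837 5705 next to 4029 of Pde2a.

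Such loci made up 6 of the 10 highest shares named below. Of the 41 such parents, 27 have a symbol that is Gm and a number. Over all 53 parents with a symbol of that kind, matched to an overlapping gene or not, 42 were dominated (79.2%). Among the other 3535 parents it was 845 (23.9%). Among dominated genes with at least 600 counts, the 10 with the highest share were Gm42420 (99.8%), Rtl8c (99.7%), Gm44965 (99.5%), Dram1 (98.7%), Gm20695 (98.4%), Ndfip1 (98.0%), Gm29609 (96.7%), Mef2b (96.6%), Gm14322 (96.4%) and Gm20671 (96.4%). In 6 of the 10 the new isoforms matched the protein of an overlapping gene, including Mef2b, a transcription factor gene whose 2 new isoforms matched Borcs8. Without the 41 such parents 856 dominated genes were left. Whether a read was counted under both genes was not tested.

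A smaller part of the new isoforms than of the known ones had any recognised protein domain. A Pfam domain, a conserved protein segment, was annotated in 86.0% of the new isoforms and in 92.4% of the known isoforms of the same genes, and a Swiss-Prot match in 96.5% and 98.8%. Where the leading known isoform had a domain, 721 of 6774 new isoforms (10.6%) had none, compared with 251 of 5029 other known isoforms (4.99%). In 43 dominated genes the leading isoform was a new one without a domain although the leading known isoform had one. They include Ccdc85b, Syne1 (2123 counts against 2077 for Syne1-201), the adaptor Gipc1 (1363 against 848), the antioxidant enzyme gene Srxn1 (1163 against 1105) and the talin gene Tln1 (628 against 265). Since the table gives no reading frames, a missing domain describes its annotation only.

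The isoform table did not hold every annotated transcript of the parents. Whether the transcripts it lists are the reference that new isoforms were set against was not examined here. Of the parents' GENCODE transcripts 97.8% of 13298 protein-coding and 95.3% of 2012 nonsense-mediated decay ones were listed, but 1 of 6536 retained-intron and 6 of 4127 processed transcripts. At least 1 such unlisted noncoding transcript was annotated in 84.5% of the parents, in 81.5% of the dominated genes and in 70.4% of the 9308 other known genes with at least 60 counts. The parents also had more counts, with a median of 1883 against 364. How many of the new isoforms match an unlisted transcript was not analysed here.

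TEPP-46 was compared with vehicle for the level of each new isoform and for its usage. Usage means the change of an isoform against its whole gene, itself included. Usage fold changes are edgeR coefficients on the natural-log scale. At an adjusted p under 0.05, edgeR's quasi-likelihood test called 0 of 7080 new isoforms in level, beside 0.0% of all 33854 isoforms tested. At an unadjusted p under 0.05, 88 were higher (1.24%, against 1.88% of all isoforms) and 320 lower (4.52%, against 3.9%). The median log2 fold change of TEPP-46 over vehicle was -0.01 for new isoforms and 0.01 for all. The 3 TEPP-46 values lay above the 3 vehicle values in 356 new isoforms (5.03%, against 5.73% of all) and below them in 403 (5.69%, against 5.18%). In usage 0 of 7033 were called by edgeR's diffSpliceDGE, against 0.00361% of all isoforms, with 34 at an unadjusted p under 0.05 higher (0.483%, against 0.498% of all) and 20 lower (0.284%, against 0.173%). DESeq2, run as an alternative, tests level only.

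DESeq2 called 25 of 6346 new isoforms lower in TEPP-46 (0.394%, against 0.56% of all isoforms) and 0 higher (0.00376% of all isoforms), in 18 parents. The authors' deposited table calls 18 of the 7101 lower and 0 higher. Over all isoforms it calls 125 lower and 1 higher, with 38927 marked normal and 36404 without a call. In edgeR no call was made on the same isoforms, so they are given as values. The adenylate kinase Ak5 isoform ONT.8287.1 had 368, 261 and 325 counts in vehicle and 110, 170 and 148 in TEPP-46, without overlap. Its log2 fold change was -1.23 with a standard error of 0.21 (edgeR adjusted p = 0.254, DESeq2 adjusted p = 0.00038). The known isoforms of Ak5 had 375, 267 and 344 counts and 110, 172 and 148, and the share of ONT.8287.1 within Ak5 was 46.9% ± 0.952 (SD, n = 3) in vehicle and 47.5% ± 0.618 (SD, n = 3) in TEPP-46. In Prrt3, Mcrip1, Htatsf1 and Ube2d3 the new isoforms with the smallest p had log2 fold changes of -1.86, -0.80, -0.80 and -0.94. The others that DESeq2 called include 3 isoforms of Adgrb1, an adhesion receptor, 2 of Cnih2, an AMPA receptor auxiliary protein, 2 of Gfra4 and 2 of Epn1. The usage of the 25, each against its whole gene, moved by at most 0.42 on the natural-log scale. An unadjusted usage p under 0.05 was found for 2 of them. As a share of their gene, 11 of the 25, in 10 parents, were lower in TEPP-46 without overlap and 2 were higher. Over all 7033 new isoforms tested for usage these were 5.53% and 6.75%, and over all isoforms 5.77% and 6.18%. The 25 were picked for a lower level, and the count has no test. The Olfm1 isoform ONT.6564.1 was 38.0% ± 4.005 (SD, n = 3) of its gene in vehicle and 25.8% ± 3.86 (SD, n = 3) in TEPP-46, and the Deaf1 isoform ONT.11687.1 was 44.1% ± 0.933 (SD, n = 3) and 34.0% ± 3.10 (SD, n = 3). Neither passed the usage test (edgeR adjusted p = 1, rounded, for both).

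On the higher side the smallest unadjusted p values belonged to isoforms of Lbhd2, Nap1l5, Hmbox1 and Fbxw17 (2 isoforms). The Lbhd2 isoform had 3, 6 and 4 counts in vehicle and 17, 18 and 20 in TEPP-46, with a log2 fold change of 1.97 and a standard error of 0.42 (edgeR adjusted p = 0.312). The known isoforms of Lbhd2 had 3, 6 and 5 counts and then 19, 19 and 22. As a share of Lbhd2 the new isoform was 34.3% ± 1.75 (SD, n = 3) in vehicle and 37.1% ± 1.56 (SD, n = 3) in TEPP-46. The Nap1l5 isoform had 135, 117 and 125 and then 195, 201 and 175, a log2 fold change of 0.51. The known isoforms of Nap1l5 had 1081, 1080 and 886 counts and then 1364, 1258 and 1258. Neither of the 2 new isoforms passed the test.

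**Figure D4:**
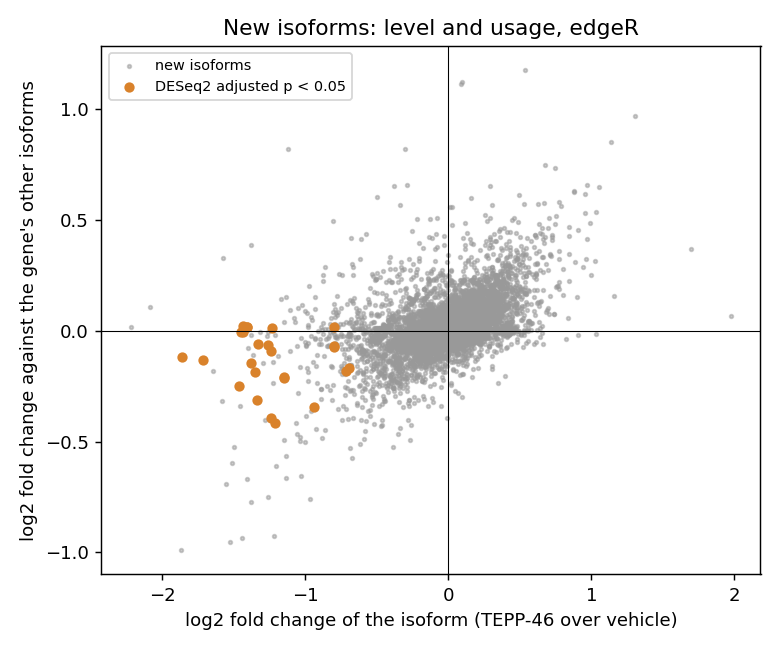
Each point is a new isoform, with the edgeR log2 fold change of its level, TEPP-46 over vehicle (x axis), and its usage fold change (y axis). The y values are against the whole gene on the natural-log scale, although the axis title names log2 and the other isoforms. Orange points are the 25 that DESeq2 called. The orange points lie left of 0 on the x axis and within 0.42 of 0 on the y axis.

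The share of new isoforms per gene was compared between the groups in the 3424 parents with at least 30 isoform counts in every library. The groups did not overlap in 402 (11.7%), with TEPP-46 higher in 228 and lower in 174. For the share of the leading isoform of any gene, known or new, the groups did not overlap in 12.8% of 7882 genes, with TEPP-46 higher in 217 and lower in 791. The median absolute difference was 0.97 percentage points. In usage, the smallest unadjusted p values on the higher side were for isoforms that include those of Ywhab, Carmil2, Map1lc3a and Htatsf1. ONT.6993.8 of Ywhab, a 14-3-3 protein, made up 13.9%, 12.6% and 11.6% of the gene in vehicle and 24.9%, 20.9% and 18.2% in TEPP-46. Its usage fold change was 0.49 on the natural-log scale (unadjusted p = 0.00124, edgeR adjusted p = 1, rounded). On the lower side were Tln2, Elavl3, Asap1, Timm9 and Lmo4, with usage fold changes of -0.76, -0.75, -0.77, -0.93 and -0.66 on that scale. The isoform of Tln2, a talin, had 29, 23 and 26 counts in vehicle and 13, 14 and 15 in TEPP-46, or 18.7%, 12.7% and 20.5% and 9.03%, 6.60% and 8.67% of its gene. None of these passed the adjusted threshold.

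In most genes the share of new isoforms differed little between libraries, and in some it differed widely. Over 3012 parents with at least 600 counts, the highest and lowest library differed by a median of 4.21 percentage points, and by over 20 points in 32. The library farthest from the median was T1 in 16 of the 32 and C4 in 11, and T1 had the highest share in 22. Leaving out T1 left 15 such genes and leaving out C4 left 19. A range over fewer libraries cannot be wider, so the number could not rise, and no other single library was left out for comparison.

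The 5 with the widest range all had their highest share in T1. They were Marc2, Rab5if, Eif3f, Kctd13 and Map1lc3a. In Rab5if, Eif3f, Kctd13 and Map1lc3a the 3 TEPP-46 shares lay above the 3 vehicle shares, and in Marc2 the groups overlapped. Over the 3424 parents compared, the groups did not overlap in 11.7%. Rab5if had 7.43%, 9.09% and 10.1% in vehicle and 45%, 28.8% and 22% in TEPP-46. In usage, new against known counts summed per gene gave 0 calls among 3522 parents at an edgeR adjusted p under 0.05. In Eif3f, a translation initiation factor, the share was 3.95%, 5.94% and 7.47% in vehicle and 41.0%, 15.2% and 7.59% in TEPP-46. Its 1 new isoform had 28, 42 and 60 counts and 34, 45 and 33, while its other isoforms had 680, 665 and 743 counts in vehicle and 49, 252 and 402 in TEPP-46. In Map1lc3a, the autophagy protein LC3A, the new isoforms had 606, 553 and 797 counts in vehicle and 760, 648 and 506 in TEPP-46, and the other isoforms 1251, 988 and 1742 against 435, 638 and 696. In both genes T1 had the lowest count of the other isoforms and a count of new isoforms within the range of the other libraries. In 22 of the 32 genes T1 had the lowest CPM of the other isoforms, and in 4 the highest CPM of the new ones. In Marc2, a mitochondrial reductase gene, the share was 62.2% in T1 and 23.1% to 35.4% in the others. The part of library T1 in the differences between the groups in these genes was not tested beyond leaving it out.

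**Figure D5:**
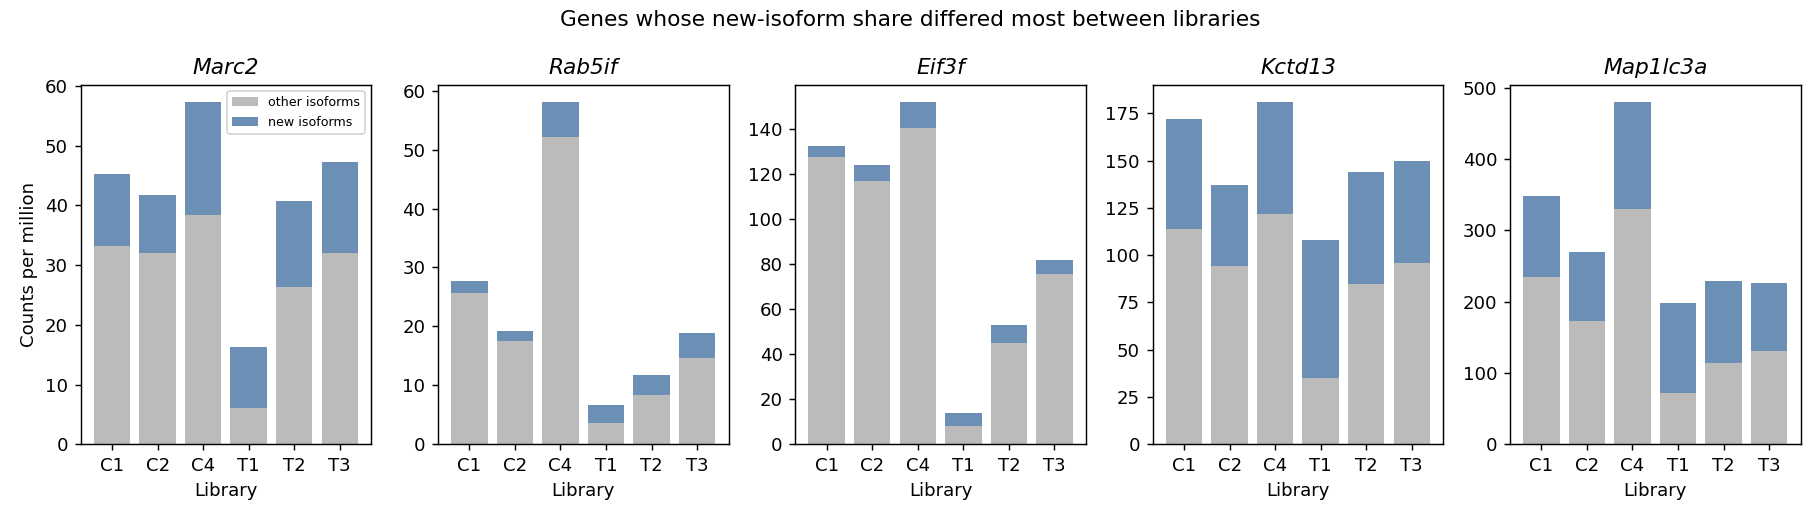
CPM (y axis) of the other isoforms (grey) and, stacked on them, of the new isoforms (blue) in each library (x axis) for the 5 genes with the widest range of share. In T1 the grey part is the lowest of the 6 libraries in all 5 genes, while the blue part lies within the range of the other libraries in 4 genes and is the highest in Kctd13 (72.7 CPM against 43.2 to 59.2).

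The count minimum kept isoforms of small and large share alike. The 30 new isoforms with 60 to 62 summed counts held a median of 12.9% of their gene (0.861% to 61.4%). The 50 with 57 to 59 counts, just outside, held a median of 8.15% (0.0833% to 93.5%).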

How the data were processed

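Full-length cDNA of 6 samples, 3 per group, was sequenced with a nanopore cDNA-PCR kit, per the labels' protocols. The authors deposited raw counts per gene and per isoform for each library, per the file headers. The build GRCm38 and DESeq 1.10.1 are named in the submitters' processing notes. For the aligner, the assembler and the counting rule, nothing is given in the sources used here. The authors' deposited calls were used only where named. The 12 further columns of per-library values were left unused. Column letters tie libraries to groups, but their numbers match no labelled sample.

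A share is the summed counts of a gene's new isoforms over those of all its isoforms, and CPM is the count per 1000000 counts of the library's isoform total. The whole isoform table was tested with edgeR 4.0.16 in R 4.3.3 (filterByExpr, TMM, robust quasi-likelihood F test, group as the single term), usage with diffSpliceDGE, and p-values were adjusted by Benjamini-Hochberg over all isoforms tested. DESeq2 1.42.0 was an alternative, which gave no adjusted p for 7228 isoforms. Tested on simulated data, the level test on 33854 isoforms for TEPP-46 against vehicle recovered 36% of changes of 1 on the log2 scale and 93% of changes of 2, and the usage test 9.64% and 70.4%. The changes were put into 100 isoforms per size, drawn only from those above a minimum mean count. Recovery at lower counts was not measured. Of the 150 calls of the level test in that simulation, 21 (14%) were false, above the nominal 5%. A permutation test was exact and two-sided.

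Genes were named by rule. It took the 25 dominated genes with the most counts of new isoforms, the 10 new isoforms with the highest counts, the 2 leading parents and the dominated genes of each list, the 10 highest shares at 600 or more counts, and the 5 widest ranges between libraries. For the comparison it took called new isoforms, or the 5 per direction with the smallest unadjusted p and no overlap. Some that the rule took are covered only by counts or are not reported here. Members and lists were chosen with earlier results of these data known. A planned description of exon structure was not made because the table has neither coordinates nor sequences, and the protein annotation columns were described in its place. Reference transcripts and gene positions are from GENCODE M21.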

Additional observations from a re-analysis of the deposited data

How the results depend on the processing

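Counts of isoforms of 1 gene are not independent, and with 3 libraries per group no permutation p can fall under 0.1, so neither the shares nor their p-values carry more than the spread of these libraries. No paired analysis was possible because the columns carry no number of a labelled sample, so the planned fit with a replicate block was not run. The share of new isoforms in known-gene counts, 23.8%, was 22.4% without the 20 parents with the highest counts and 37.5% with each parent weighted equally; it ranged from 23.7% to 24.0% when single libraries were left out. The difference between TEPP-46 and vehicle in this share, -0.0434 points, was 0.0688 and 0.227 under those same settings. It ranged from -0.393 to 0.273 over the fits without 1 library and was above 0 without C4 (0.273) or without T3 (0.16). The median share per gene was 35.1% with no count minimum and 37.2% with a minimum of 120, and 36.0% to 36.3% without single libraries. The number of dominated genes, 887, was 173 when a single new isoform had to exceed 50%, 148 at a threshold of 75% and 43 at 90%. It was 103 when the leading new isoform had to exceed 2 times the leading known one in every library, a setting chosen after seeing the data. It was 880 to 890 without single libraries, 931 with no minimum, 791 with a minimum of 120, 733 when every library had to exceed 50% and 684, chosen after seeing the data, when the leading isoform had to be new. In level, 34 of 7101 new isoforms were called by edgeR without a low-count filter, 25 of 6346 by DESeq2, and 0 to 36 when a library was left out. The 36 calls, all lower, were made without C2, among 7092 tested. Over all isoforms, 162 lower and 3 higher of 61625 were called without the filter. Without C2 it was 176 lower and 2 higher of 34945, and by DESeq2 149 lower and 1 higher of 26626. The cause of the differences between settings was not tested. Usage gave 0 calls under each of the alternatives run. Of the shares of named genes, 828 of 836 recomputed values moved by less than the spread between libraries. The 32 genes with a range over 20 points became 15 to 19 without T1 or C4, settings chosen after seeing the data. Leaving out a library cannot raise this number.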

Other observations

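A group of 7 new isoforms in 3 parents had a retroelement or proviral protein as their Swiss-Prot match, compared with 1 of the 8830 known isoforms of the parents with at least 60 counts. They were sought after the data were seen. In Slc17a5, the lysosomal sialic acid transporter, 1 such isoform had 819, 664 and 609 counts in vehicle and 879, 824 and 731 in TEPP-46, which was 94.2% of the gene, and it also carried the transporter domain in the Pfam annotation. In Dram1, a lysosomal membrane protein linked to autophagy, the 3 new isoforms had 575, 573 and 465 summed counts and no Pfam domain, while the leading annotated transcript had 18 counts. In Chd9, a chromatin remodeller, the 3 new isoforms had 1682, 1580 and 1562 summed counts and matched a proviral envelope protein. They held 81.5%, 89.7% and 90.9% of Chd9 in the vehicle libraries and 89.0%, 89.5% and 88.4% in those of TEPP-46. Whether these transcripts join the element to the gene or only lie within its bounds was not tested, since the table gives no coordinates for them.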
